A study of Mus musculus with 4 samples.

Results

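Milk leaves the mammary cell with fat droplets wrapped in cell membrane, with secreted enzymes and with transported solutes, and 10 genes of that machinery were followed here: Btn1a1, Xdh, Plin2, Mfge8, Muc15, Folr1, Slc34a2, Olah, Lpo and Cel. They were chosen by function, as milk fat globule, alveolar transport and secreted enzyme genes with the caseins left out. The choice was made with earlier results of these data known. Each gene was found through the RefSeq accession of its array probes. The 10 genes were read by 13 probes, of 18952 named genes and 41174 probes in all, and 7 of the 10 could be tested. The RNA came from the mammary glands of female mice, 13 weeks old, that all carried the transgene Δ16HER2, an oncogenic splice variant of the receptor HER2, at a stage the labels call pre-neoplastic. Glands labelled WT (arrays WT 1 and WT 2) were compared with glands labelled STM KO (arrays knockout 1 and knockout 2), STM being stathmin, so every group carried the transgene and no gland without it was measured. The labels give neither the promoter that drives the transgene nor the knockout allele, and they do not say whether each array came from 1 mouse, so the p-values cover the spread between these 4 samples, which may be technical.

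Alveolar cells of the gland make milk fat in the endoplasmic reticulum and coat the droplets with perilipin 2, the product of Plin2. At the apical surface butyrophilin (Btn1a1) and xanthine dehydrogenase (Xdh) bind each other under the membrane that wraps the droplet, and lactadherin (Mfge8) and mucins such as Muc15 sit on the finished globule. Many of these genes are switched on in pregnancy under prolactin and STAT5, while Plin2, Mfge8 and Xdh are also expressed in adipocytes, macrophages or endothelium.

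RefSeq promoter windows (300 bases, from 250 before to 50 after a gene's start, build GRCm38.p6) were found for 6 of the 10 genes: Cel, Lpo, Mfge8, Olah, Plin2 and Slc34a2. The 250 bases before the start are shown 5′ to 3′ for Cel, Lpo and Olah, which all read highest on WT 1 below, and for Mfge8, which did not. Capitals mark a match to any of the motifs searched on both strands.
Cel, chr2:28563404-28563653, minus strand: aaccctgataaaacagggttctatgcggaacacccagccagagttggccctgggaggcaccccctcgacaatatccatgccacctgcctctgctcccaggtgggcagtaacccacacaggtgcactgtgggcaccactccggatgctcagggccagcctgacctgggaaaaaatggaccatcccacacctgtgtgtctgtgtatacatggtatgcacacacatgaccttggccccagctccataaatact
Lpo, chr11:87826115-87826364, minus strand: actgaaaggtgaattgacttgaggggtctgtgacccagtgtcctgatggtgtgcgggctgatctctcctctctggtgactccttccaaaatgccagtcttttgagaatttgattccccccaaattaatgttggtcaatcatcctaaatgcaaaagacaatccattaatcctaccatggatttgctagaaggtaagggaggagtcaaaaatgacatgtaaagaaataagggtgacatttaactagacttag
Olah, chr2:3366570-3366819, minus strand: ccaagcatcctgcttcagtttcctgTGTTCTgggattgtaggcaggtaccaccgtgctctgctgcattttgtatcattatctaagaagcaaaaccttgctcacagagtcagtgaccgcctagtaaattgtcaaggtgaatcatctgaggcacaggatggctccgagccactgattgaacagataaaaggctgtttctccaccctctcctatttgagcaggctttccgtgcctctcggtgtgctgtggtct
Mfge8, chr7:79149061-79149310, minus strand: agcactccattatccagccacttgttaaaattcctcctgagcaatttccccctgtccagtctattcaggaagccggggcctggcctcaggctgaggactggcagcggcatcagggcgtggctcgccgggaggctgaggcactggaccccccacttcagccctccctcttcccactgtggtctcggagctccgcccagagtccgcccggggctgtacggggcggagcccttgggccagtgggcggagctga
The STAT-type motif TTCNNNGAA, a palindrome, was in none of the 6 windows and in 8.3% of all 32851 promoter windows. The C/EBP-type motif, TTGCNNAA or its reverse complement TTNNGCAA, was in 1 of the 6, that of Slc34a2, and in 10.8% of all windows. The short glucocorticoid and progesterone receptor motif, TGTTCT or its reverse complement AGAACA, was in 1 of the 6, that of Olah, and in 18.97% of all windows. Olah held it 225 bases before the start and again 45 bases after it. These are matches of letters and no measure of binding, and a window without a match says nothing on bases outside it.

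Each array held Cy3-labelled RNA of 1 sample, 54.7% to 66.2% of probe spots per array were well above background, and no spot was saturated. Levels below are log2 signals relative to the 75th percentile of the array, and fold changes are knockout minus WT on that scale with the standard error (SE) of the limma fit. All arrays lay on 1 slide in 1 scan, with the WT samples at the first positions, so genotype and slide position cannot be told apart. For Stmn1, the targeted gene, the brighter probe read 5.59 and 3.59 on the WT arrays and 4.56 and 3.34 on the knockout arrays and did not separate them. The other Stmn1 probe read -1.13 and -3.39 against -5.71 and -5.05 and was well above background on WT 1 alone, and since the probes disagree the arrays are called by their labels. Markers of luminal epithelium were present, 13 of 14 well above background on every array. Lymphocyte markers stood apart on knockout 2, with a summed signal of 36.05 times the 75th percentile against at most 1.299 times on the other arrays.

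Of the 7 members measured on every array, Folr1 was the one whose groups did not overlap. Lack of overlap was common: both knockout arrays lay below both WT arrays for 17.8% of all tested genes and above them for 17.7%. Folr1 was 3.21-fold lower on the arrays labelled knockout and nearly equal within each group. The membrane genes Btn1a1, Xdh, Plin2 and Mfge8 differed between the groups by at most 0.43 on the log2 scale, within the spread of the arrays. Muc15, Cel, Olah and Lpo were highest on WT 1, and their level on WT 2 lay within or below the range of the knockout arrays, or below background. No member passed the limma test at a Benjamini-Hochberg adjusted p under 0.05, where 0% of all 24182 tested probes did, and 895 of those probes had an unadjusted p under 0.05. At that unadjusted level 1 of the 7 tested members was lower, Folr1, and none was higher, against 2.4% of 13234 tested genes lower and 1.14% higher. All 7 fold changes were negative (6 of them after quantile normalization, median scaling or normexp correction), where 50.8% of all genes were, with a median of -0.43 against -0.01 over all genes. That direction rested on WT 2: without it 4 of the 7 turned positive and the median was 0.01. Since the members were chosen with earlier results of these data known, their counts beside all genes are a description only.

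**Figure D1:**
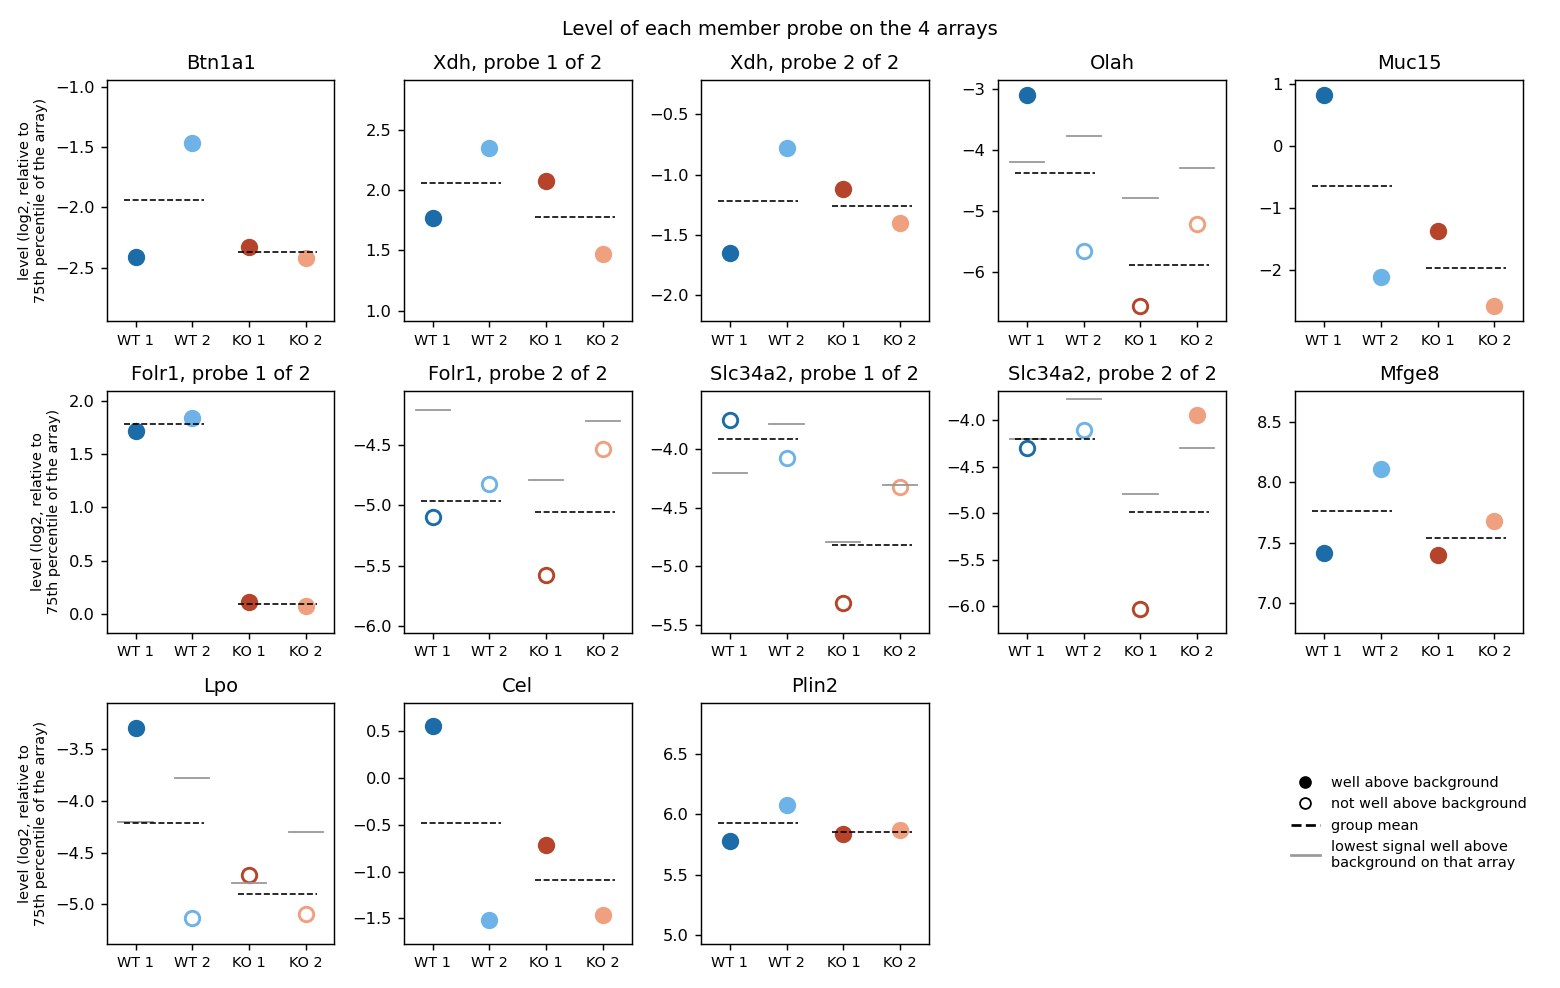
Level of each of the 13 member probes (log2, relative to the 75th percentile of the array) on WT 1, WT 2, knockout 1 and knockout 2, each panel on its own vertical scale. Filled points were well above background, dashed lines are group means, and grey lines give the lowest signal of any spot well above background on that array. The WT and knockout points separate for Folr1 probe 1 and, with every point not well above background, for Slc34a2 probe 1, while WT 1 stands alone at the top for Olah, Muc15, Lpo and Cel.

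Among the genes of the globule membrane, Btn1a1, the butyrophilin that gives the globule coat its main membrane protein, read -2.41 and -1.47 on the WT arrays and -2.33 and -2.42 on the knockout arrays. WT 2 stood above the other 3 arrays, and the groups overlapped because WT 1 lay between the knockout arrays. The log2 fold change was -0.43 ± 0.38 (SE, n = 2 per group, limma adjusted p = 0.935), with a 95% interval from -1.38 to 0.52. Xdh, the enzyme of purine breakdown that also holds butyrophilin in the globule coat, read 1.77 and 2.35 on the WT arrays and 2.08 and 1.47 on the knockout arrays with its brighter probe. WT 2 was again highest and the groups overlapped. The second Xdh probe read -1.65, -0.78, -1.12 and -1.40 across WT 1, WT 2, knockout 1 and knockout 2, also highest on WT 2. Their log2 fold changes were -0.28 ± 0.35 and -0.05 ± 0.37 (SE, limma adjusted p = 0.939 and 0.991).

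Plin2, which coats lipid droplets in alveolar cells and adipocytes alike, varied least of the 7 tested members. It read 5.78 and 6.08 on the WT arrays and 5.84 and 5.87 on the knockout arrays, so both knockout arrays lay between the WT arrays. Its log2 fold change was -0.07 ± 0.25 (SE, limma adjusted p = 0.977), with a 95% interval from -0.71 to 0.57. Mfge8, the secreted lactadherin that tethers dying cells to phagocytes and coats the globule, read 7.41 and 8.11 on the WT arrays and 7.40 and 7.68 on the knockout arrays. Knockout 1 nearly matched WT 1, and WT 2 was highest. The log2 fold change was -0.22 ± 0.33 (SE, limma adjusted p = 0.944), and its 95% interval ran from -1.06 to 0.61. These intervals leave room for a difference of up to about the size of their bounds, so the arrays do not show that the groups were alike for these genes. Adipocyte markers, 9 of 10 above background on every array, had summed signals of 711 and 954 times the 75th percentile on the WT arrays and 653 and 790 on the knockout arrays. They were highest on WT 2, as were Plin2, Mfge8, Btn1a1 and Xdh. So were macrophage markers, with summed signals of 29.7 and 49.3 on the WT arrays and 25.3 and 30.6 on the knockout arrays. Luminal epithelial markers were highest on WT 2 as well, with summed signals of 136 and 179 on the WT arrays and 156 and 101 on the knockout arrays. Endothelial markers, at 53.1 and 50.8 against 46.9 and 47.8, were highest on WT 1. The part of these cells in those levels was not tested. Of the 7 tested members 5 read highest on WT 2, where 23.1% of all genes did.

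Muc15, a membrane mucin of the globule, showed the widest range of any tested member. Its signals were 337 and 33.5 on the WT pair and 112 and 26.8 on the knockout pair, which are levels of 0.82, -2.11, -1.38 and -2.58. The WT arrays thus differed from each other 7.61-fold and the knockout arrays 2.30-fold, and WT 2 lay between the knockout arrays. The log2 fold change of -1.33 ± 1.004 (SE, limma adjusted p = 0.935) rested on WT 1 and was 0.13 without it.

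Folr1 encodes folate receptor alpha, a lipid-anchored receptor on epithelial surfaces that is also shed into milk. Its brighter probe gave signals of 631 ± 63.2 on WT 1 and 517 ± 51.8 on WT 2, and of 316 ± 31.8 on knockout 1 and 169 ± 17.1 on knockout 2, where ± is the scanner software's own error. Relative to the 75th percentile the levels were 1.72 and 1.84 on the WT arrays and 0.11 and 0.08 on the knockout arrays. The WT arrays differed from each other 1.09-fold and the knockout arrays 1.03-fold, and both knockout arrays lay below both WT arrays. Among all tested genes 17.8% were ordered in that way, and 0.657% had a fold change of at least that size in either direction. The log2 fold change was -1.68 ± 0.24 (SE, n = 2 per group, limma unadjusted p = 0.000708, adjusted p = 0.935), with a 95% interval from -2.29 to -1.08. Leaving out 1 array at a time kept it between -1.74 and -1.63. The second Folr1 probe gave signals of 5.09 to 6.92, on no array well above background, and so gives no second reading of the gene. Fewer cells that express a gene and less RNA per cell cannot be told apart in these whole-gland samples.

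The luminal epithelial markers were lowest on knockout 2, with a mean level centred on the 4 arrays of 0.20 and 0.21 on the WT arrays, 0.15 on knockout 1 and -0.57 on knockout 2. Set against the mean of that list on each array, Folr1 read 0.68 and 0.79 on the WT arrays and -0.88 and -0.19 on the knockout arrays, 2.41-fold lower on the latter and still without overlap. Of the knockout arrays, knockout 1 held the lower Folr1 level on this scale. The scale was chosen after seeing the data, and the luminal markers' own log2 fold changes ran from -1.38 to 0.19. The part of luminal cells in the Folr1 difference was not tested. On the same scale Btn1a1 differed by -0.02, and the brighter Xdh probe, Mfge8 and Plin2 by 0.13, 0.19 and 0.34. These lay below the median over all genes, which was 0.41 on that scale.

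Slc34a2 encodes the sodium-dependent phosphate carrier of secretory epithelia. Its brighter probe gave signals of 14.2 and 8.58 on the WT arrays and 7.32 and 8.03 on the knockout arrays and was not well above background on any of them, so that the order of these readings, lower on both knockout arrays, is no measured difference. The second probe gave 9.70 and 8.38 on the WT arrays, 4.46 on knockout 1 and 10.4 on knockout 2, and was well above background on knockout 2 alone. Slc34a2 was therefore at the limit of these arrays in both groups, and no fold is given.

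Of the enzymes, Cel, the bile salt-stimulated lipase that pancreas and mammary gland secrete, was measured on every array. Its signals were 281 and 50.4 on the WT pair and 177 and 57.9 on the knockout pair, or levels of 0.55, -1.52, -0.72 and -1.47. WT 1 was high and WT 2 was the lowest array, so the knockout arrays lay between the WT arrays. The WT arrays differed 4.21-fold and the knockout arrays 1.68-fold, more than the log2 fold change between groups of -0.61 ± 0.72 (SE, limma adjusted p = 0.938), which was 0.43 without WT 1. Of 11 pancreatic acinar markers 6 (Cpa1, Cpb1, Prss2, Pnlip, Pnliprp1 and Clps) were on no array well above background, and 2 were on all 4. Those were Ctrl, with signals of 20.8 to 33.5, and Cela1, with 43.3 and 48.2 on the WT arrays and 173 and 74.9 on the knockout arrays. Ctrb1, well above background on 3 arrays, gave 19.36 and 19.99 on the WT arrays and 12.5 and 12.4 on the knockout arrays. The summed signal of that list was 0.80 and 0.87 times the 75th percentile on the WT arrays and 0.93 and 1.07 times on the knockout arrays. It was lowest on WT 1, as was Cela1, whereas Ctrl read highest there, as Cel did. Ctrl levels were -2.52 and -2.79 on the WT arrays and -3.32 and -2.94 on the knockout arrays. The part of pancreatic cells in the Cel levels was not tested.

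Olah and Lpo were seen on WT 1 alone. Olah encodes the thioesterase that ends fatty acid synthesis early and so gives milk its medium-chain fatty acids, and it gave a signal of 22.2 ± 3.36 (software error) on WT 1. On WT 2, knockout 1 and knockout 2 it gave 2.87, 3.12 and 4.33, none well above background. The signal on WT 2 was the lowest of the 4, although knockout 1 was lower relative to the 75th percentile. Lpo encodes lactoperoxidase, an antibacterial enzyme of milk, saliva and tears. It gave 19.5 on WT 1 (software error 3.596) and 4.12, 11.1 and 4.69 on WT 2, knockout 1 and knockout 2, with WT 2 lowest on both scales. Neither gene was tested and no fold between the groups is given, because each was measured on 1 of the 2 WT arrays and on no knockout array.

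Beside the genes that were highest on WT 1 stood a difference between the samples of each group. Proliferation genes had a mean level centred on the 4 arrays of 0.81 and -0.91 on the WT pair and of 0.59 and -0.50 on the knockout pair, and Muc15 and Cel shared that order of the arrays within each genotype. The brighter Stmn1 probe had it too, with WT 1 at 3.999 times the level of WT 2 and knockout 1 at 2.33 times that of knockout 2. The part of that difference between samples in the milk genes was not tested. Of the 7 tested members 2 read highest on WT 1, where 25.6% of all genes did.

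**Figure D2:**
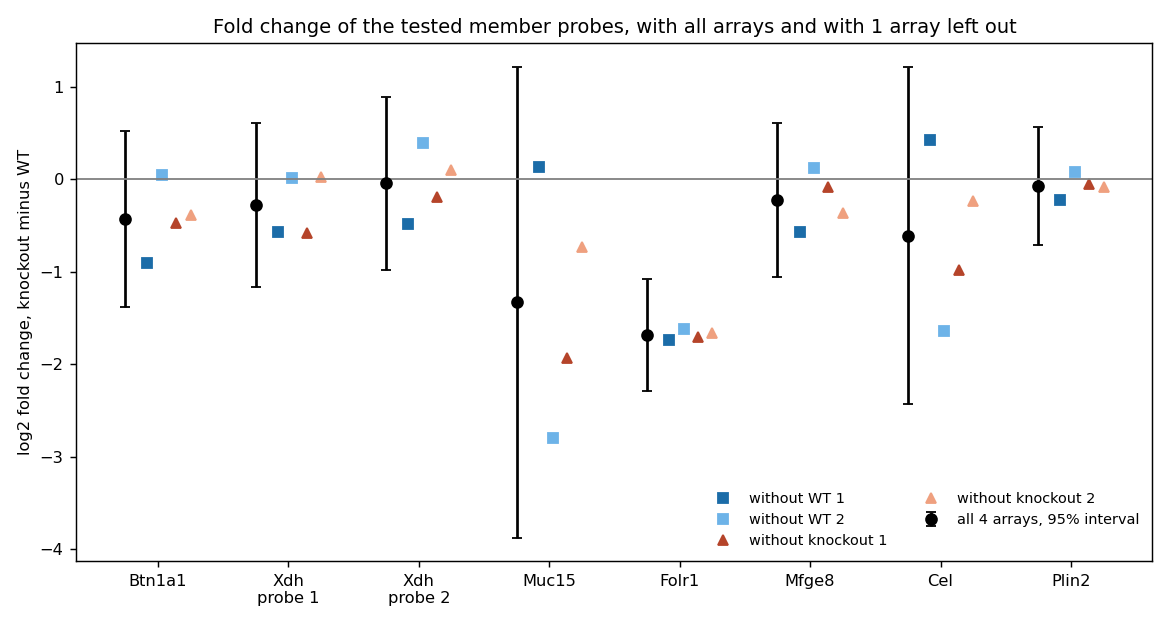
Log2 fold change (knockout minus WT) of the 8 tested member probes, with all 4 arrays (black points, bars are 95% intervals of the limma fit) and with each array left out in turn (coloured points). Folr1 stays between -1.74 and -1.63, whereas Muc15 runs from -2.80 to 0.13 and Cel from -1.65 to 0.43.

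Among the genes that work beside the members, caseins and whey proteins differed by more than the members did. The fatty acid synthesis partners of Olah leaned the other way, with a median of 0.49. The butyrophilin pair had a median of -0.43, and the remaining lists had medians smaller in size. No gene of these lists passed the limma test (smallest adjusted p = 0.935 in any of them). Caseins and whey proteins are the closest relatives in the milk programme: all 6 tested of 8 had both knockout arrays below both WT arrays, against 1 of 7 members and 17.8% of all genes. Of the 8, only 5 were well above background on every array, as all 7 tested members were. At least 1 of the 6 was therefore tested through its WT arrays alone, which favours that order. The median of the caseins and whey proteins was -2.70, with Csn1s1, Csn1s2a and Csn2 at -3.31 ± 0.84, -4.87 ± 0.63 and -3.88 ± 0.69 (SE), against -0.43 for the members. Csn1s2a passed the test after median scaling, where the median over all genes was 0.17, and all 3 passed it relative to the luminal list, where that median was 0.41. The median of these milk proteins stayed between -3.62 and -1.93 with 1 array left out, whereas that of the members ran from -0.59 to 0.01. Other secreted milk proteins and enzymes had 10 of 20 tested genes with both knockout arrays lower, where 17.8% of all genes were, none with both higher, and a median of -0.37. In that list the lipase Lpl had -0.38 ± 0.25, its inhibitor Angptl4 had -0.43 ± 0.32, and Wfdc18, a small secreted protein of the whey acidic protein family, had -2.19 ± 0.50. Over the scalings Lpl ran from -0.40 to -0.21 and Angptl4 from -0.53 to -0.26.

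Other globule and lipid droplet genes did not lean to either side. Of 19 tested genes 10 were positive and 9 negative, with a median of 0.02. Both knockout arrays were higher for 2, where 17.7% of all genes were, and lower for 1, where 17.8% were. The droplet protein Cidec had -0.21 ± 0.31 (0.035 after quantile normalization), the triglyceride synthase Dgat2 had -0.19 ± 0.28 and the perilipin Plin4 had 0.02 ± 0.42 (SE). Over the scalings Dgat2 ran from -0.20 to -0.015 and Plin4 from 0.011 to 0.26. Only Btnl9 and Btnl1 of the butyrophilin family could be tested, at -0.33 ± 0.29 and -0.53 ± 0.42 (up to -0.15 and -0.26 under other scalings), and Btn2a2 was well above background on WT 1 alone. Of the peroxidases related to Lpo, Pxdn, which crosslinks collagen IV, had -0.15 ± 0.36, or 0.03 after median scaling, and the others could not be tested.

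Alveolar transporters, the partners of Slc34a2, had 4 of 15 tested genes with both knockout arrays lower, where 17.8% of all genes were, none with both higher, and a median of -0.10, which was 0.07 after median scaling. The water channel Aqp5 had -1.54 ± 0.32 (SE, limma unadjusted p = 0.00436, adjusted p = 0.935), the amino acid carrier Slc1a5 had 0.39 ± 0.39 and the vitamin carrier Slc5a6 had 0.49 ± 0.43. Folate genes showed no drop of the size seen for Folr1, with 5 of 7 tested negative, 2 positive and the lowest at -0.60. Their median was -0.09 over 7 tested genes, or 0.09 after median scaling and 0.07 after normexp correction. The reduced folate carrier Slc19a1 lay the other way, with both knockout arrays above both WT arrays and a log2 fold change of 0.82 ± 0.28 (SE, limma unadjusted p = 0.0308, adjusted p = 0.935). Slc19a1 stayed between 0.797 and 0.998 under the other scalings. Folr2, the folate receptor of macrophages, had -0.60 ± 0.38, and Fpgs, which retains folate in the cell, had -0.13 ± 0.27, or 0.04 after median scaling and 0.075 after normexp correction. The partners of Olah in fatty acid synthesis leaned higher, with 12 of 15 positive, 7 with both knockout arrays higher where 17.7% of all genes were, and a median of 0.49, or 0.17 without WT 2. Thrsp, a regulator of fat synthesis, had 0.70 ± 0.24, while the synthase Fasn had -0.16 ± 0.36 and ran from -0.17 to 0.13 over the scalings, and Srebf1, a transcription factor of lipid synthesis, had -0.05 ± 0.26 and ran from -0.06 to 0.13.

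**Figure D3:**
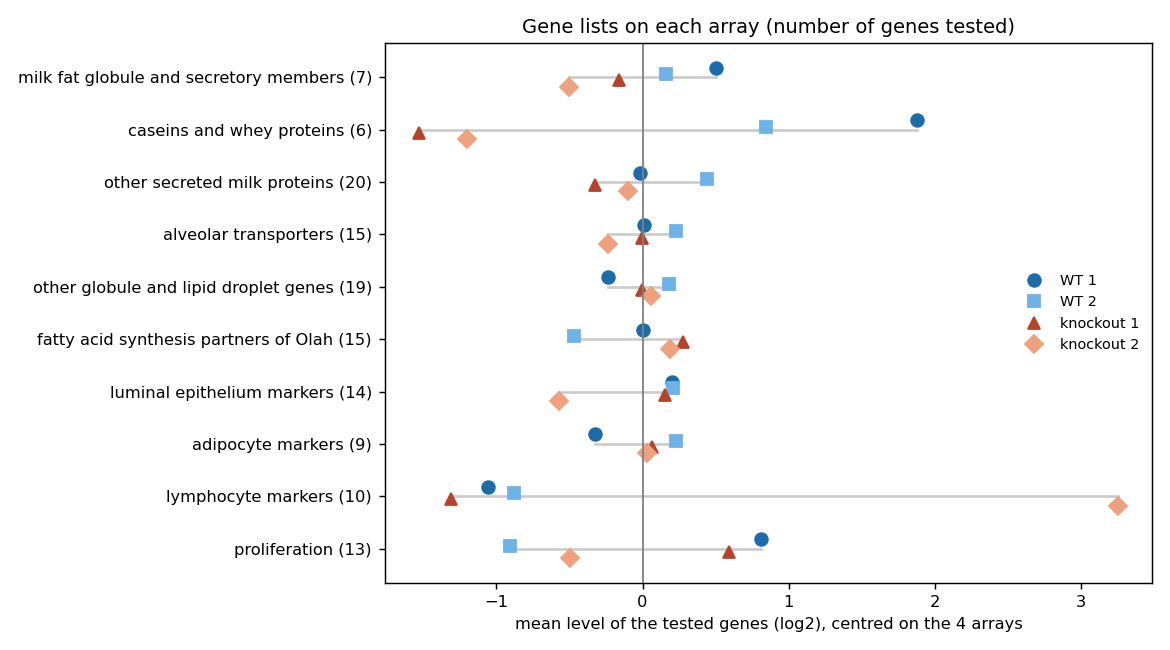
Mean level (log2) of the tested genes of each list on WT 1, WT 2, knockout 1 and knockout 2, centred on the mean of the 4 arrays, with the number of genes in brackets. Caseins and whey proteins run from -1.52 on knockout 1 to 1.88 on WT 1, the members from -0.50 on knockout 2 to 0.50 on WT 1, and lymphocyte markers reach 3.25 on knockout 2.

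Salivary gland markers were examined because Lpo and Folr1 are also made by other exocrine glands. Of the 10 on the array, Smr3a, Bpifa2, Dcpp2 and Mucl2 were on no array well above background, and 3 were on all 4. The number well above background was 6 on WT 1, where Lpo was seen, 3 on WT 2, 3 on knockout 1 and 4 on knockout 2. The summed signal of the list was 39.99 and 60.7 times the 75th percentile on the WT arrays and 64.6 and 58.2 times on the knockout arrays, most of it from Amy1, an amylase with a log2 fold change of 0.38 ± 0.30 (SE). Car6, the carbonic anhydrase of saliva and milk, and Prol1, a secreted mucin-like protein, were lower on both knockout arrays, as Folr1 was. Car6 read 0.64 and 1.36 on the WT arrays against -3.04 and -1.52 on those labelled knockout. Its log2 fold change was -3.28 ± 0.57 (SE, limma unadjusted p = 0.00191, adjusted p = 0.935). Car6 passed the test relative to the luminal list. Prol1 read -1.41 and -0.83 against -4.20 and -2.91, a log2 fold change of -2.43 ± 0.50 (SE), with signals of 15.8 and 21.3 on the knockout arrays. After normexp correction the fold changes were smaller, -1.96 for Car6 and -1.11 for Prol1. The part of such cells in the Folr1 difference, or in the Lpo signal on WT 1, was not tested.

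The genes whose centred levels over the 4 arrays lay closest to the mean profile of the 7 measured members were Col1a1, Pkp3, Arvcf, Man1a2 and Hpn, of 12191 genes compared. Their Euclidean distances to it were 0.034, 0.070, 0.087, 0.089 and 0.105 on the log2 scale. The mean profile itself read 0.50, 0.16, -0.16 and -0.50 across WT 1, WT 2, knockout 1 and knockout 2, and no single member followed it, since WT 1 was raised by Muc15 and Cel and WT 2 was highest for the other 5. Likeness over 4 arrays is a description only.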

How the data were processed

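Expression was measured in total RNA of 4 mammary gland samples on 4 one-colour Agilent arrays, grouped by the titles and genotype labels as 2 WT and 2 knockout, all 13 weeks old. The description field names EOC cells, against the other labels, and was not used. The authors deposited spot intensity files from Agilent's Feature Extraction software, with background subtracted within each array per the file headers, which give version 11.5.1.1 where the submitters' processing notes give 10.7.3.1. A second table, of log2 values, was deposited without its steps. It matched quantile-normalized log2 signals centred on each probe's median (r at least 0.99999, column medians -0.018, 0.0183, 0.00626 and -0.00958), which settled its scale, centring and direction, and it served as an alternative.

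Control spots and outlier spots (35 to 73 per array) were left out, replicate spots averaged, and log2 processed signals set against each array's 75th percentile. Probes well above background on both arrays of a group were tested (24182 of 41174) with limma 3.58.1 in R 4.3.3, adjusted over all of them, and the fit was tested on simulated data. Accessions without version named 27816 probes through RefSeq (GRCm38.p6, for names only) and left 13358 unnamed. A gene stood by its brightest tested probe, and every member probe is given. The members, gene lists and tests were chosen with earlier results of these data known. Named beside the members were the 3 genes of highest mean level of each partner list, Stmn1, the 5 genes nearest the members' profile and any gene passing the test. The rule covered the marker lists too, of which only the pancreatic and salivary genes are named. Btn2a2, the markers on no array above background and the lists' other counts fall outside that rule and were named after their values were seen. The lists of basal, macrophage, endothelial and muscle markers had medians of -0.30, -0.30, -0.21 and -0.31, that of luminal markers -0.38, of adipocyte markers 0.16, of lymphocyte markers 2.15, of pancreatic markers 0.09, of salivary markers -2.43 and of proliferation genes 0.05. The lymphocyte median was 0.0070 without knockout 2, and the adipocyte median was -0.058 without WT 1. With 1 array left out the proliferation median ran from -1.08 to 1.07. Only 4 pancreatic and 3 salivary markers were tested, and the pancreatic median was -0.20 after normexp correction. The files name no genome build, so gene coordinates are not given. The number of arrays limits the precision.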

Additional observations from a re-analysis of the deposited data

How the results depend on the processing

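The results were recomputed under 15 other settings and 1 chosen after seeing the data, levels relative to the luminal marker list. The normexp correction used the median spot signal, since the files hold no mean spot signal. The count of members past an adjusted p of 0.05 was 0 under each setting that was refitted over all probes, and also at an adjusted p of 0.1. For all probes it was 0 except 4 under median scaling (Scrg1, Csn1s2a, Rbbp4 and Slc6a2), where the median over all genes was 0.17, and 49 relative to the luminal list (among them Csn1s1, Csn1s2a, Csn2 and Car6, with a median over all genes of 0.41), and the cause was not tested. The median of the members was -0.017 relative to the luminal list, and ran from -0.59 to 0.0069 with 1 array left out, the last being without WT 2. Folr1 ran from -1.70 to -1.27 with all arrays kept, with adjusted p from 0.275 to 0.987, and had its lowest adjusted p, 0.2199, without knockout 1. Reversed fold changes with all arrays kept were those of Mfge8 (0.025 by quantile, 0.063 by normexp, 0.036 in the deposited log2 table, 0.19 relative to the luminal list), Plin2 (0.10 by median scaling, 0.34 luminal), the second Xdh probe (0.0054 by quantile, 0.0059 in the deposited table, 0.13 by median scaling, 0.37 luminal) and the brighter Xdh probe (0.13 luminal), all with an adjusted p of at least 0.964. With 1 array left out these and others reversed: the highest values were 0.040 for Btn1a1, 0.018 for the brighter Xdh probe, 0.39 for the second, 0.13 for Muc15, 0.12 for Mfge8, 0.43 for Cel and 0.077 for Plin2, and the lowest were -0.90, -0.59, -0.48, -2.80, -0.57, -1.65 and -0.22. The labels state no pairing of same-numbered arrays, and the correlation of their deviations over all tested probes was 0.065. That value does not exclude a shared difference in some genes, such as the proliferation genes, which were higher on the first array of both groups. With the replicate number as a block 0 members and 0 probes were called and 2 members had an unadjusted p under 0.05 in place of 1. In this balanced design the block cannot move a fold change, so the members' median is -0.43 by construction. Signal over background limits Slc34a2, Olah, Lpo and the second Folr1 probe.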
